A study of Mus musculus with 12 samples.

Results

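Complex III, complex IV and ATP synthase are mitochondrial oxidative phosphorylation complexes, and the nuclear genes of their subunits, with those of the mobile carrier cytochrome c, were followed here through a knockdown and a cytokine treatment. A row of the count table was taken as a member if its symbol began with Uqcr, with Atp5, or with Cox, a digit from 4 to 8 and a letter a, b, c or i, or was Cyc1 or Cycs, if it did not end in -ps, and if it had at least 10 counts in every library. Of 55471 rows, 58 matched by name, 11 of these carried a pseudogene name and 7 fell under the count minimum, which left 40 members. Of the 40 members 9 belonged to complex III, 1 was cytochrome c (Cycs), 13 belonged to complex IV and 17 belonged to ATP synthase. The 7 genes under the minimum were Cox4i2, Cox6b2, Cox6c2, Cox7b2, Cox8b, Cox8c and a second row named Atp5o. The name rule also takes in a few proteins that sit beside the complexes, such as Cox7a2l, and leaves out Ndufa4, which is a complex IV subunit despite its name.

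RNA-seq was done on dendritic cells (DCs) grown with GM-CSF from the bone marrow of female C57BL/6 mice. All 4 groups were transduced with a retroviral vector that carries a short hairpin RNA (shRNA) and a human CD8 reporter, on which transduced cells were sorted. The hairpin was directed at firefly luciferase (shControl) or at Ppargc1b (shPpargc1b), which encodes PGC-1β, a co-activator of transcription. Each line was left unstimulated or was treated with interferon-β (IFN-β), an antiviral cytokine, for 6 h, which gave 4 groups of 3 libraries. The labels do not say whether the 3 libraries of a group came from separate mice or cultures, so the p-values measure the spread between these libraries, which may be technical. Which of the study's Ppargc1b hairpins was used is not labelled either. Effects of a hairpin other than on Ppargc1b cannot be told apart here from those of the knockdown. The comparisons ask how reduced PGC-1β alters the RNA of the respiratory chain in resting and in IFN-β-treated DCs.

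In the respiratory chain, complex III passes electrons from ubiquinol to cytochrome c, and complex IV passes them from cytochrome c to oxygen. Both pump protons across the inner mitochondrial membrane, and ATP synthase uses the returning protons to turn a ring of c subunits and make ATP. Nearly all of their subunits are encoded in the nucleus, and PGC-1 co-activators are known to act on such genes through nuclear respiratory factors and estrogen-related receptors (ERR). Several complex IV positions and the ATP synthase c ring can be filled by products of more than 1 gene, some of them typical of muscle.

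The promoters of the members were searched for 4 short motifs of factors that act on respiratory chain genes, since the members moved together. RefSeq start sites (GRCm38.p6) were matched for 31 of the 40 members, with a window from 250 bases before to 50 after each start, read on both strands. The nuclear respiratory factor 1 (NRF1) core GCATGCGC was present in 7 of the 31 members (22.6%), against 5.56% of the 11261 tested genes with a window and 3.05% of all genes with one. The ETS core CCGGAAG, which is bound by the GABP complex, was present in 11 of 31 (35.5%), against 19.0% of tested genes and 9.93% of all genes. The YY1 core AAGATGGC was found in 3 members (9.68%, against 5.09% of tested genes). The ERR element TNAAGGTCA was found in 1 member, Atp5g3 (3.23%, against 0.906% of tested genes), 52 bases before its start. These shares were not tested, and a match is a run of letters and not evidence of binding. Among the members without a match were Cox7a1, Atp5o, Atp5b and Uqcrfs1, which were lower with the knockdown below. Atp5e and Atp5md, which were not, hold an ETS core. Whether a match goes with the fall was not tested. The stretches from 180 bases before to 10 after the start follow for 7 members that hold a match and that the results return to. All 7 are on the minus strand and written in the direction of transcription. Capitals mark the motif letters of either strand, and 10 capitals in a row are overlapping NRF1 matches on both strands.
Uqcrh (complex III, ETS core, chr4:116075061-116075250): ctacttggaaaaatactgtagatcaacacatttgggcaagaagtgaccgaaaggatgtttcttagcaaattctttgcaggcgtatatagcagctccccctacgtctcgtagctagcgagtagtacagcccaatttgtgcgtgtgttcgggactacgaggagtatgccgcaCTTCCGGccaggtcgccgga
Uqcr11 (complex III, ETS core and NRF1 core, chr10:80406812-80407001): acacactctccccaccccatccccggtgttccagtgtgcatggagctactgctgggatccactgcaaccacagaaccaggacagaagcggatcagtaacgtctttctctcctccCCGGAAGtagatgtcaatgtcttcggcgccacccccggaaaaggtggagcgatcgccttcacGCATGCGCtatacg
Cycs (cytochrome c, NRF1 core, chr6:50566560-50566749): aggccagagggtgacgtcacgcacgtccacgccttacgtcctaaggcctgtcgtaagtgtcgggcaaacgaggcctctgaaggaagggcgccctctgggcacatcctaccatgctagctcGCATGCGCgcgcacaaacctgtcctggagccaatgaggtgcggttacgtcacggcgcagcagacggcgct
Cox6a1 (complex IV, NRF1 core and ETS core, chr5:115348949-115349138): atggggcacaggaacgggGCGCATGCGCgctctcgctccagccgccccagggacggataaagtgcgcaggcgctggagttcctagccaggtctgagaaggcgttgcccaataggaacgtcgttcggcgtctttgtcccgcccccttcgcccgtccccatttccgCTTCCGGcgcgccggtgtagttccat
Cox8a (complex IV, ETS core, chr19:7217607-7217796): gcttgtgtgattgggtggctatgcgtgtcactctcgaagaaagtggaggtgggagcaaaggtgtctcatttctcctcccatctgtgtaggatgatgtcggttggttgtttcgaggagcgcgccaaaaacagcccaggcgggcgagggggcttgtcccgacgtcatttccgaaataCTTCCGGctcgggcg
Atp5g2 (ATP synthase c subunit, NRF1 core, chr15:102671038-102671227): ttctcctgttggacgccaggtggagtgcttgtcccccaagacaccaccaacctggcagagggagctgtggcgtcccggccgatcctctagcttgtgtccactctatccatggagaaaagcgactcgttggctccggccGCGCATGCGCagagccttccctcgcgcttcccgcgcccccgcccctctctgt
Atp5g3 (ATP synthase c subunit, ERR element, chr2:73911317-73911506): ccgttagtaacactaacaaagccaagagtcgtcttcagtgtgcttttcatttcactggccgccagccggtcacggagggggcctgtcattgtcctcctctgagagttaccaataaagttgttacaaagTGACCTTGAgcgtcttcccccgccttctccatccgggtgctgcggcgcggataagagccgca

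The library totals were 49.9 to 77.7 M counts, and levels are given as CPM, with library sizes scaled by TMM factors. Every member but 2 had at least 353 counts in each library, and the exceptions were Cox6a2 (at least 19) and Cox7a1 (at least 24). Ppargc1b, the targeted gene, measured 33.4, 33.3 and 36.7 CPM in unstimulated shControl and 18.6, 19.3 and 20.3 CPM in unstimulated shPpargc1b libraries, 56.3% of the control mean. With IFN-β it measured 31.4, 23.6 and 28.4 CPM in shControl and 19.6, 15.5 and 20.9 CPM in shPpargc1b libraries, or 67.2%. The knockdown was therefore partial in both states, and the groups did not overlap. The control level itself differed, since with IFN-β the shControl mean was 80.6% of the unstimulated one, without overlap. The shPpargc1b mean with IFN-β was 96.1% of the unstimulated one, with overlap. Differences below were tested by the edgeR quasi-likelihood test over 18228 genes, with Benjamini-Hochberg adjusted p under 0.05 as the threshold, and ± after a log2 fold change gives its standard error (SE). Values per library are in the order of replicates 1 to 3.

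**Figure D1:**
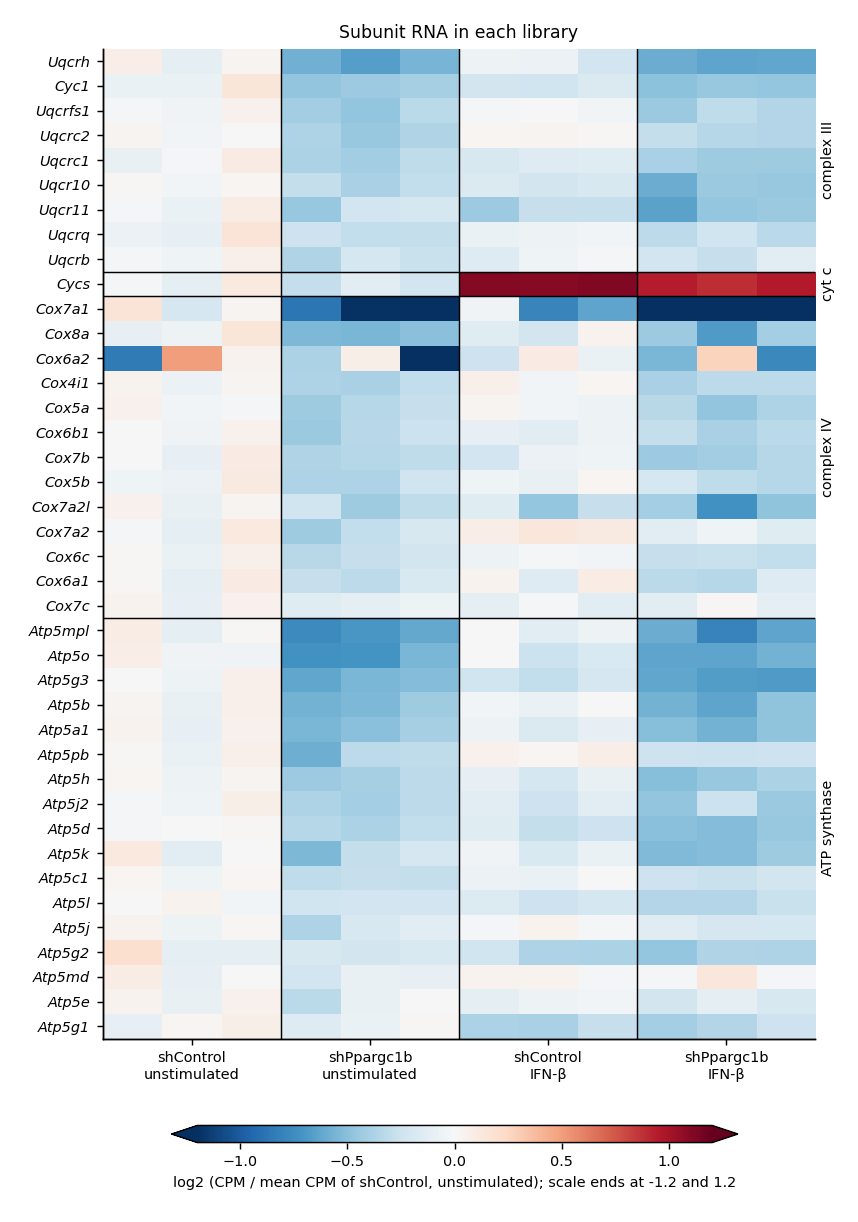
Level of each of the 40 members (rows, by complex) in each of the 12 libraries (columns, 3 per group), as log2 of CPM over the mean of unstimulated shControl. The columns of both shPpargc1b groups are blue in nearly every row, and Cycs alone is red throughout the IFN-β columns.

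With knockdown of Ppargc1b the RNA of most subunits of all 3 complexes was lower in unstimulated DCs. Of the 40 members 34 were lower in shPpargc1b than in shControl libraries and 0 were higher, while 11.1% of all tested genes were lower and 12.4% were higher. All 40 log2 fold changes lay below 0, with a median of -0.34, against -0.005 over all tested genes. No member was higher at an unadjusted p under 0.05 in the edgeR test either, and DESeq2 and limma-voom likewise called 34 lower and 0 higher. In 35 of the 40 members every shPpargc1b library lay below every shControl library, which was so for 18.4% of all tested genes. Levels of the 34 lower members were 44.9% to 86.1% of the control mean. Since these are bulk samples, fewer cells of a type and less RNA per cell cannot be told apart.

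**Figure D2:**
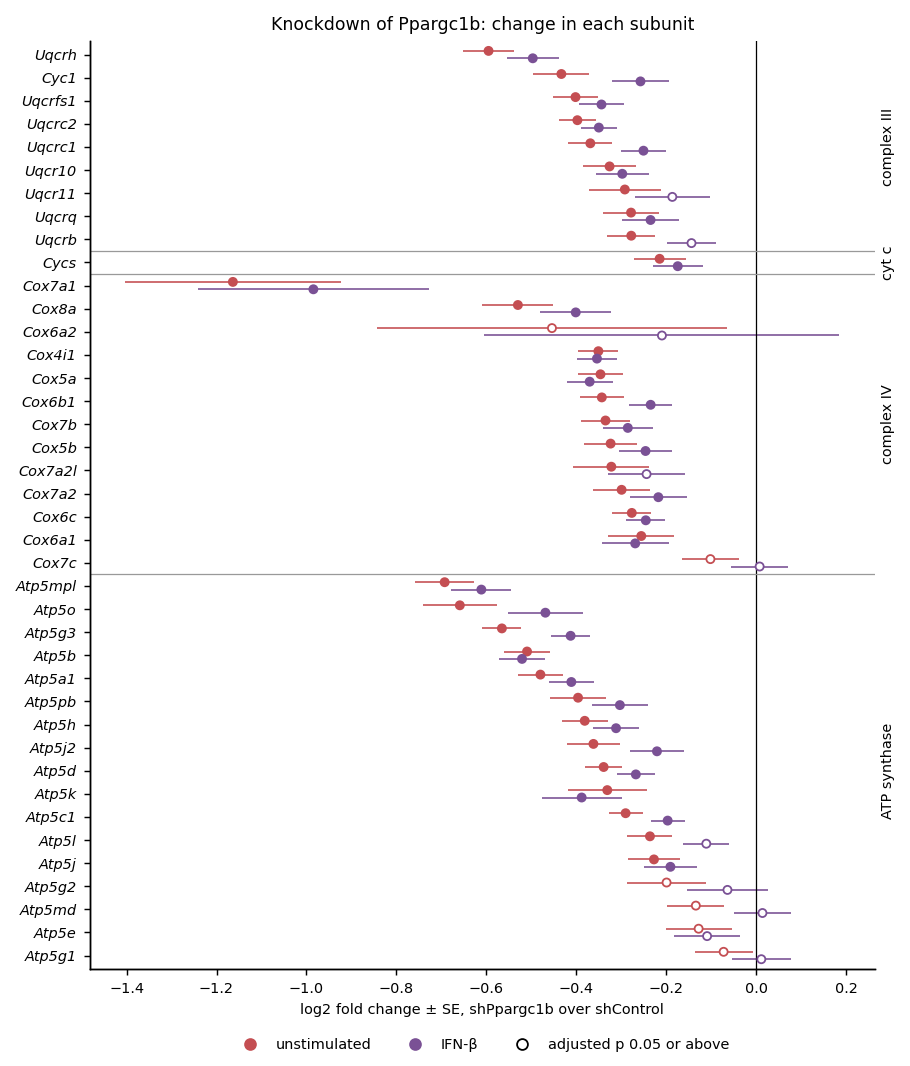
Log2 fold change of each member, shPpargc1b over shControl, with its SE, in unstimulated (red) and IFN-β-treated (purple) DCs. Filled points passed the adjusted p threshold of 0.05, 34 of 40 without and 30 of 40 with IFN-β, and all filled points lie left of 0.

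All 9 members of complex III were lower in unstimulated shPpargc1b cells, with a median log2 fold change of -0.37. Uqcrh, the acidic hinge protein that aids the docking of cytochrome c (chr4:116066965-116075071, GRCm38; its promoter with an ETS core is printed above), fell most. Its level was 65.5, 57.2 and 63.5 CPM in shControl and 41.6, 39.4 and 42.2 CPM in shPpargc1b libraries. The groups were well apart, and the log2 fold change was -0.60 ± 0.06 (adjusted p = 2.7e-06). Uqcrb, which binds ubiquinone, and Uqcrq, a small neighbour of cytochrome b, changed least within the complex. Uqcrb measured 67.9, 66.3 and 71.6 CPM in shControl and 53.5, 59.2 and 57 CPM in shPpargc1b libraries, a log2 fold change of -0.28 ± 0.05 (adjusted p = 0.0013). Uqcrq measured 27.8, 27.2 and 32.5 CPM in shControl and 24.5, 23.7 and 23.9 CPM in shPpargc1b libraries, with -0.28 ± 0.06 (adjusted p = 0.004). Even for these genes no library of one group reached into the other.

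The catalytic and core proteins of complex III moved by similar amounts. Cyc1, the cytochrome c1 that hands electrons to cytochrome c (chr15:76343523-76346260), measured 26, 26 and 30.5 CPM in shControl and 19.9, 20.3 and 20.9 CPM in shPpargc1b libraries, or 74% of control, a log2 fold change of -0.43 ± 0.06 (adjusted p = 0.0001). The Rieske iron-sulfur protein Uqcrfs1 and the core proteins Uqcrc1 and Uqcrc2 gave log2 fold changes of -0.40, -0.37 and -0.40, so that these 3 and Cyc1 together spanned only -0.43 to -0.37. The remaining small subunits Uqcr10 and Uqcr11 gave -0.33 and -0.29, and the Uqcr11 call was lost without shControl replicate 3 (adjusted p = 0.071) or shPpargc1b replicate 1 (adjusted p = 0.068). Summed per length of annotated exon (CPM per kilobase, here RPKM), complex III members reached 301, 289 and 314 RPKM in unstimulated shControl and 228, 231 and 239 RPKM in unstimulated shPpargc1b libraries. The shPpargc1b mean was 77.3% of control, at the smallest p that an exact two-sided permutation test allows for 3 libraries against 3 (p = 0.1). Within complex III the level per length in unstimulated shControl was highest for Uqcrb (78.3 ± 3.09 RPKM, SD, n = 3) and lowest for Cyc1 (12.8 ± 1.21 RPKM). The order between these ends ran Uqcrh, Uqcrfs1, Uqcr10, Uqcr11, Uqcrc2, Uqcrq and Uqcrc1, of which the last pair differed by less than the SD of the former, at 15.9 ± 1.57 and 14.7 ± 0.94 RPKM.

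Cycs, the somatic cytochrome c, which carries electrons between complexes III and IV and also takes part in apoptosis once released to the cytosol (chr6:50562563-50566538), had a smaller log2 fold change than most members. Its level was 24.3, 22.8 and 26.6 CPM in unstimulated shControl and 20.1, 22.4 and 21 CPM in unstimulated shPpargc1b libraries. The groups lay close together without overlap, with a log2 fold change of -0.21 ± 0.06 (adjusted p = 0.013). The call was lost without shControl replicate 3 (adjusted p = 0.077) and without shPpargc1b replicate 1 (adjusted p = 0.056).

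In complex IV 11 of 13 members were lower in unstimulated shPpargc1b cells, with a median log2 fold change of -0.34, and Cox6a2 and Cox7c did not pass the threshold. Cox7a1, the isoform of subunit 7a that is typical of heart and skeletal muscle (chr7:30184144-30186078), changed most of all 40 members, from a low level. It measured 1.68, 1.31 and 1.54 CPM in shControl and 0.825, 0.658 and 0.552 CPM in shPpargc1b libraries. Its highest shPpargc1b library lay well under its lowest shControl library, and the log2 fold change was -1.16 ± 0.24 (adjusted p = 0.0021). Its partner for the same position, the widely expressed Cox7a2, and the related Cox7a2l had smaller log2 fold changes. Cox7a2 measured 43.8, 41 and 48.1 CPM in shControl and 33, 36.1 and 38.7 CPM in shPpargc1b libraries, with -0.30 ± 0.06 (adjusted p = 0.0028). Cox7a2l measured 80.4, 72.8 and 79.6 CPM in shControl and 65.7, 57.8 and 62.8 CPM in shPpargc1b libraries, with -0.32 ± 0.08 (adjusted p = 0.011). Both were lower in each shPpargc1b library than in any shControl library, although the Cox7a2l call was lost without shPpargc1b replicate 2 (adjusted p = 0.059). Of the RPKM summed over the 3 genes, Cox7a1 made up 3.02%, 2.58% and 2.68% in unstimulated shControl and 1.90%, 1.57% and 1.22% in unstimulated shPpargc1b libraries (exact two-sided permutation p = 0.1, the smallest possible).

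Cox8a, the small single-span subunit 8 and the member with the highest level per length (206 ± 19.0 RPKM in unstimulated shControl; chr19:7215153-7217616), measured 119, 123 and 141 CPM in shControl and 87.7, 87.2 and 90.1 CPM in shPpargc1b libraries. The spread within shControl was wide and the shPpargc1b libraries were nearly equal, with a log2 fold change of -0.53 ± 0.08 (adjusted p = 0.00014). Cox4i1, the regulatory subunit 4 that binds ATP, measured 94.2, 87.1 and 93.7 CPM in shControl and 71.1, 69.8 and 74.7 CPM in shPpargc1b libraries, with -0.35 ± 0.04 (adjusted p = 3.2e-05). Cox6b1, which joins the 2 monomers on the outer face of the membrane, measured 139, 136 and 145 CPM in shControl and 103, 111 and 117 CPM in shPpargc1b libraries, with -0.34 ± 0.05 (adjusted p = 8.5e-05). Cox8a, Cox4i1 and Cox6b1 thus fell to 69.2%, 78.4% and 78.8% of control. The other isoforms for these positions, Cox8b, Cox8c, Cox4i2 and Cox6b2, had under 10 counts in at least 1 library and were not members.

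Cox6a1, the common isoform of subunit 6a, measured 36.5, 33.3 and 38.5 CPM in unstimulated shControl and 29.9, 29 and 31.8 CPM in shPpargc1b libraries, with a log2 fold change of -0.26 ± 0.07 (adjusted p = 0.02). This call was among the least firm, since leaving out any of 4 single libraries (shControl replicate 1 or 3, shPpargc1b replicate 1 or 2) raised the adjusted p to between 0.053 and 0.091. Its muscle isoform Cox6a2 measured 0.367, 0.95 and 0.692 CPM in shControl and 0.513, 0.702 and 0.262 CPM in shPpargc1b libraries. Those values overlapped, the log2 fold change was -0.45 ± 0.39 (adjusted p = 0.46) and the low counts left a wide error. Cox6a1 supplied 97.1% to 99.2% of the summed RPKM of this pair over the 6 unstimulated libraries. Cox7c, whose product lies at the core of the membrane part, measured 21.4, 19.4 and 21.4 CPM in shControl and 18.8, 19.2 and 20 CPM in shPpargc1b libraries, which overlapped, with -0.10 ± 0.06 (adjusted p = 0.28). Cox5a, Cox5b, Cox6c and Cox7b, which form the matrix face and the rim, gave log2 fold changes of -0.35, -0.32, -0.28 and -0.34. The summed level of complex IV was 802, 774 and 862 RPKM in unstimulated shControl and 610.0, 620.0 and 653 RPKM in unstimulated shPpargc1b libraries, a mean of 77.3% of control (exact two-sided permutation p = 0.1).

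In ATP synthase 13 of 17 members were lower in unstimulated shPpargc1b cells, with a median log2 fold change of -0.34, and Atp5e, Atp5g1, Atp5g2 and Atp5md did not pass. The peripheral stalk, which holds the catalytic head still, was lower in 4 of 4 members. Atp5o, the protein of the stalk that confers sensitivity to oligomycin (chr16:91925214-91931687), measured 13.7, 12.6 and 12.6 CPM in shControl and 7.84, 7.88 and 8.85 CPM in shPpargc1b libraries. The groups were far apart, with a log2 fold change of -0.66 ± 0.08 (adjusted p = 2.8e-05). Atp5pb, Atp5h and Atp5j, the subunits b, d and F6, gave -0.40, -0.38 and -0.23. Among the small membrane proteins that border the ring and hold dimers together 4 of 5 were lower. Atp5mpl, a proteolipid of this group (chr12:111961375-111966977), measured 40.7, 35.7 and 38.6 CPM in shControl and 22.5, 23.6 and 25 CPM in shPpargc1b libraries. It fell most within ATP synthase, to 61.8% of control, a log2 fold change of -0.69 ± 0.07 (adjusted p = 2.5e-06). Atp5j2, Atp5k and Atp5l (subunits f, e and g) gave -0.36, -0.33 and -0.24, and Atp5md gave -0.13 ± 0.06 (adjusted p = 0.15). The Atp5k call was lost without shControl replicate 1 (adjusted p = 0.065) or shPpargc1b replicate 1 (adjusted p = 0.051).

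The catalytic head and central stalk were lower in 4 of 5 members. Atp5b, the catalytic β subunit and the ATP synthase gene with the highest level per length (96.2 ± 5.27 RPKM in unstimulated shControl; chr10:128083273-128090391), measured 416, 382 and 424 CPM in shControl and 275, 281 and 303 CPM in shPpargc1b libraries. Every shPpargc1b library was far below control, with a log2 fold change of -0.51 ± 0.05 (adjusted p = 4e-06). The α subunit Atp5a1, with which it alternates in the head, gave -0.48 at a similar level per length (90.6 ± 5.26 RPKM). The stalk subunits γ (Atp5c1) and δ (Atp5d) gave -0.29 and -0.34, whereas ε (Atp5e) gave -0.13 ± 0.07 (adjusted p = 0.24). Atp5l had the lowest level per length (4.02 ± 0.112 RPKM) and measured 25.8, 26.7 and 25.3 CPM in shControl and 21.9, 22.1 and 22 CPM in shPpargc1b libraries. Its annotated exon length of 6443 bases is the longest among the members, so this level per length may not compare well with the others. The summed level of ATP synthase was 547, 509 and 549 RPKM in unstimulated shControl and 382, 399.8 and 419 RPKM in unstimulated shPpargc1b libraries. The mean was 74.9% of control (exact two-sided permutation p = 0.1).

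The genes of the c ring encode the same mature protein and gave different log2 fold changes, of which only that of Atp5g3 passed. Atp5g1, Atp5g2 and Atp5g3 differ in their import sequences and are all cleaved to an identical c subunit. Atp5g3 (chr2:73908447-73911326), whose promoter holds the ERR element printed above, measured 109, 106 and 115 CPM in unstimulated shControl and 71.2, 75 and 76.4 CPM in unstimulated shPpargc1b libraries, a log2 fold change of -0.57 ± 0.04 (adjusted p = 3.1e-07). Atp5g1 (chr11:96068852-96075670) measured 23.1, 25 and 25.9 CPM in shControl and 22.2, 23.3 and 24.9 CPM in shPpargc1b libraries, which overlapped, with -0.07 ± 0.06 (adjusted p = 0.48). Atp5g2 (chr15:102662864-102672352) measured 11, 8.9 and 8.94 CPM in shControl and 8.39, 8.27 and 8.44 CPM in shPpargc1b libraries, with -0.20 ± 0.09 (adjusted p = 0.13). The share of Atp5g3 in the summed RPKM of the 3 genes was 81.6%, 82.3% and 83.2% in unstimulated shControl and 77.4%, 78.0% and 77.6% in unstimulated shPpargc1b libraries. With IFN-β it was 83.1%, 83.2% and 83.7% in shControl and 80.5%, 79.0% and 78.4% in shPpargc1b libraries. The groups of each pair did not overlap, and both exact two-sided permutation tests gave the smallest p possible, 0.1. Of the 100-base stretches of annotated Atp5g2 transcripts 43.5% also occur in transcripts of other genes, against 14.7% for Atp5g1 and 0% for Atp5g3, so reads of Atp5g2 in particular could be left uncounted, and the shares among the 3 genes are uncertain.

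**Figure D3:**
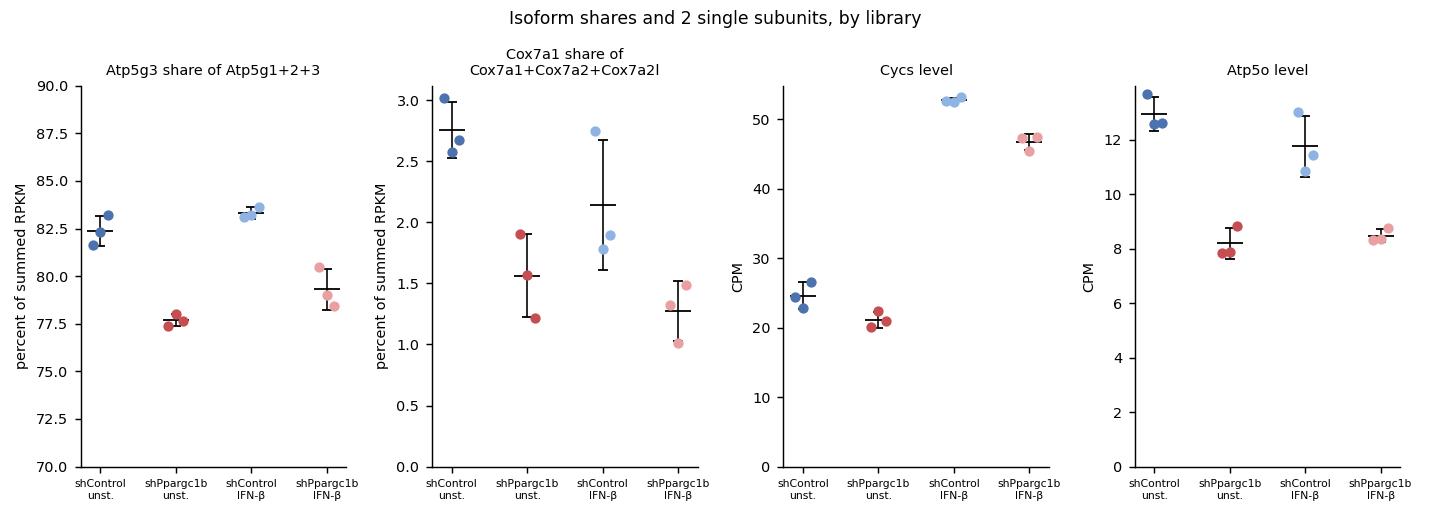
Share of Atp5g3 in the summed RPKM of Atp5g1, Atp5g2 and Atp5g3 (axis from 70%), share of Cox7a1 among Cox7a1, Cox7a2 and Cox7a2l, and CPM of Cycs and Atp5o, with 1 point per library and the mean ± SD of 3 in black. The Atp5g3 share is 82.4% and 83.3% in the shControl groups and 77.7% and 79.3% in the shPpargc1b groups, and the Cycs level separates the libraries by IFN-β.

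The knockdown effect was also present in IFN-β-treated cells, with 30 members lower and 0 higher, while 12.7% of all tested genes were lower and 11.5% higher. The median log2 fold change of the members was -0.25, against -0.01 over all tested genes, and 37 of 40 values lay below 0. In 32 members the groups did not overlap and shPpargc1b was lower, against 20.7% of all tested genes. No member was higher at an unadjusted p under 0.05 in the edgeR test, and DESeq2 and limma-voom called 31 and 30 lower and 0 higher. The 30 lower members were all among the 34 of the unstimulated state, and Atp5l, Uqcr11, Uqcrb and Cox7a2l passed in the unstimulated state only. Of these, Cox7a2l just missed the threshold (-0.24 ± 0.09, adjusted p = 0.0504), and Uqcrb gave -0.14 ± 0.05 (adjusted p = 0.065). With a block for the 3 runs of consecutive library codes Uqcr11, Uqcrb and Cox7a2l passed with IFN-β too (adjusted p of 0.047, 0.025 and 0.00046), and Uqcrb and Cox7a2l also passed when either of 2 single libraries was left out, so that only Atp5l passed in the unstimulated state alone under both fits. By complex 7 of 9 members of complex III, Cycs, 10 of 13 of complex IV and 12 of 17 of ATP synthase were lower. The sums per length were 82.4%, 81.7% and 78.4% of the shControl mean in complex III, complex IV and ATP synthase, with no overlap between groups (exact two-sided permutation p = 0.1 each).

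The members kept a similar order in the 2 knockdown comparisons, which share no library. Across the 40 members the log2 fold changes gave a Pearson r of 0.943 and a Spearman rho of 0.865, against a Pearson r of 0.614 across all tested genes. These are correlations across genes, which are not independent replicates. Cox7a1 lay furthest from 0 in both comparisons (-1.16 and -0.98), ahead of Atp5mpl (-0.69 and -0.61), and the Pearson r was not computed without it. The members, unlike all tested genes, had at least 10 counts in every library, so the sets differ in precision as well as size. Uqcrh with IFN-β measured 59.4, 59 and 52.9 CPM in shControl and 41, 40.1 and 40.3 CPM in shPpargc1b libraries, with -0.50 ± 0.06 (adjusted p = 1.7e-05). Atp5mpl measured 38.2, 35 and 36.9 CPM in shControl and 25.3, 22 and 24.8 CPM in shPpargc1b libraries, with -0.61 ± 0.07 (adjusted p = 1e-05). Both were lower in every shPpargc1b library, as they were without IFN-β. Atp5b measured 397, 384 and 408 CPM in shControl and 275, 263 and 291 CPM in shPpargc1b libraries, with -0.52 ± 0.05 (adjusted p = 4.2e-06). Cox7a1 measured 1.47, 0.87 and 0.971 CPM in shControl and 0.592, 0.421 and 0.646 CPM in shPpargc1b libraries, with -0.98 ± 0.26 (adjusted p = 0.011), and this call was lost without shControl replicate 1 (adjusted p = 0.053). Leaving out a single library also removed the calls of Atp5j (any of 6 libraries, adjusted p of 0.050 to 0.060), Cox6a1 (without IFN-β-treated shControl replicate 3, 0.0699) and Cox7a2 (without IFN-β-treated shPpargc1b replicate 3, 0.052). At the other end, Cox7c gave 0.01 ± 0.06 (adjusted p = 0.95), Atp5g1 gave 0.01 ± 0.07 (adjusted p = 0.93) and Atp5md gave 0.01 ± 0.06 (adjusted p = 0.91).

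The difference between the 2 knockdown effects was tested as an interaction, the effect with IFN-β minus the effect without it. By the edgeR test 0 of 40 members passed in either direction, where 0.73% of all tested genes did, and DESeq2 and limma-voom also called 0. At an unadjusted p under 0.05 the edgeR test gave 1 member, or 2.5%, against 10.5% of all tested genes. The interaction values were above 0 in 35 of 40 members, with a median of 0.08 against -0.0008 over all tested genes. Of all tested genes 122 passed below 0 and 11 above 0. The lowest p among the members was that of Atp5g3, at 0.15 ± 0.06 (adjusted p = 0.38).

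IFN-β alone moved few subunits by a large amount, with cytochrome c as the exception. In shControl cells 12 members were lower and 1 was higher after 6 h, while 24.6% of all tested genes were lower and 23.7% were higher. In shPpargc1b cells 4 members were lower and 3 were higher, against 21.2% and 21.4% of all tested genes. DESeq2 and limma-voom called 11 and 12 members lower and 1 higher in shControl, and both called 4 lower and 3 higher in shPpargc1b cells. The shares called among the members were below those of all genes, apart from the lower members in shControl (12 of 40, or 30.0%). The 12 calls spanned 78.5% to 91.1% of the unstimulated mean. The IFN-β comparisons in the 2 lines share no library.

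Cycs rose in all IFN-β-treated libraries. It measured 52.6, 52.4 and 53.2 CPM in IFN-β-treated shControl and 47.2, 45.5 and 47.5 CPM in IFN-β-treated shPpargc1b libraries, against the 20.1 to 26.6 CPM of unstimulated libraries given above. Every treated library was far above every untreated one, and the log2 fold change was 1.10 ± 0.06 (adjusted p = 2.1e-10) in shControl and 1.14 ± 0.06 (adjusted p = 2e-10) in shPpargc1b cells. The level in shPpargc1b cells stayed below that of shControl cells with IFN-β too (-0.17 ± 0.06, adjusted p = 0.032), but this small difference lost its call when any of 7 single libraries was left out (adjusted p of 0.051 to 0.074). About 27.7% of the 100-base stretches of Cycs transcripts also occur in transcripts of pseudogenes (Gm10053, Gm10108 and Gm13772), so that its level may be undercounted. Cyc1, which passes electrons to cytochrome c, did not rise. It measured 23.7, 23.3 and 24.3 CPM in IFN-β-treated shControl and 19.6, 20.1 and 20 CPM in IFN-β-treated shPpargc1b libraries, with -0.21 ± 0.06 (adjusted p = 0.011) in shControl and -0.03 ± 0.06 (adjusted p = 0.7) in shPpargc1b cells. The shControl calls of Cyc1, Uqcr10, Uqcrc1, Cox7a2l, Atp5h and Atp5j2 were all lost without IFN-β-treated shControl replicate 2 (adjusted p of 0.053 to 0.3), and those of Uqcrc1, Atp5h and Atp5j2 without further single libraries.

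**Figure D4:**
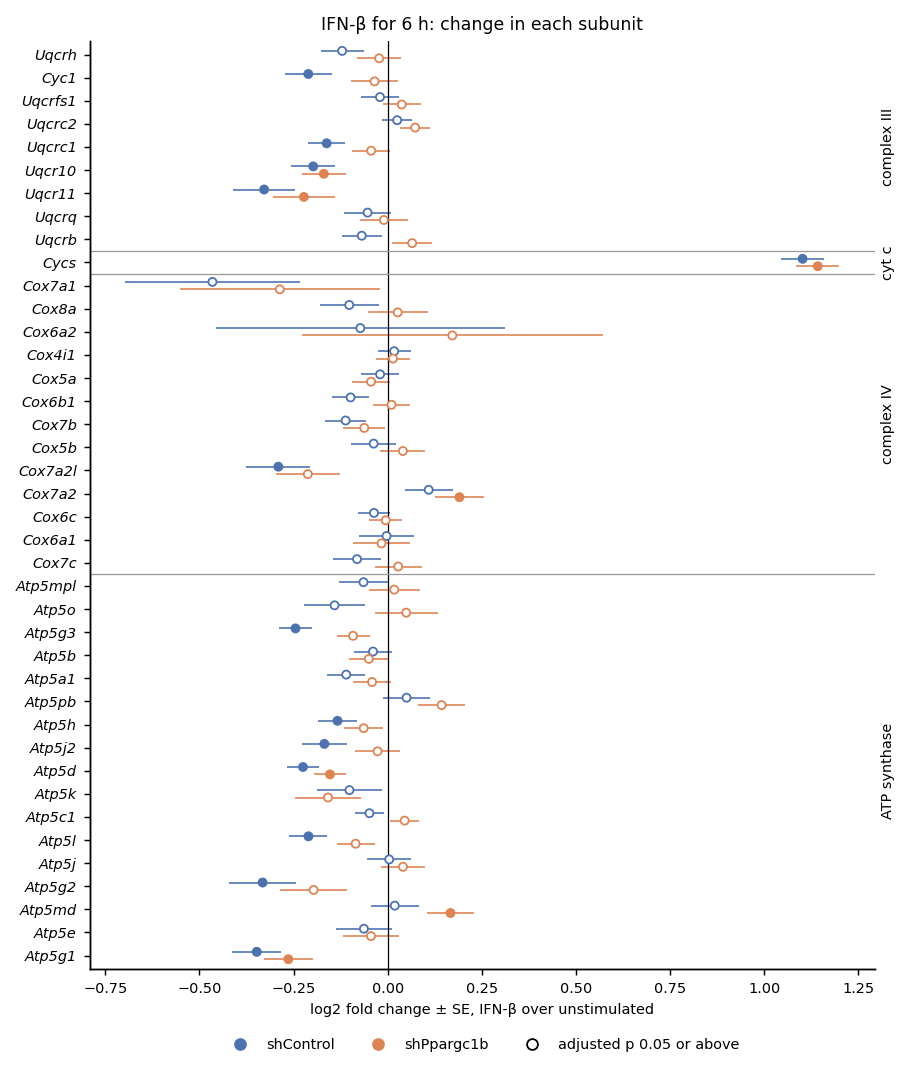
Log2 fold change of each member with its SE, IFN-β over unstimulated, in shControl (blue) and shPpargc1b (orange) cells, with open points where adjusted p was 0.05 or above. Cycs stands alone near 1.1 in both lines, and the other 39 members lie between -0.47 and 0.19, where signs depend on the scaling of libraries.

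All 3 genes of the c ring fell with IFN-β in shControl cells. Atp5g1 measured 19, 18.8 and 20.4 CPM with IFN-β, against 23.1 to 25.9 CPM without it, a log2 fold change of -0.35 ± 0.07 (adjusted p = 0.00037). Atp5g2 measured 8.12, 7.41 and 7.39 CPM with IFN-β (-0.33 ± 0.09, adjusted p = 0.006), and Atp5g3 measured 93.3, 89.3 and 95.5 CPM (-0.24 ± 0.04, adjusted p = 0.00022). In shPpargc1b cells Atp5g1 fell to 18.6, 19.3 and 20.7 CPM (-0.26 ± 0.07, adjusted p = 0.0039), while Atp5g2 and Atp5g3 gave -0.20 ± 0.09 (adjusted p = 0.094) and -0.09 ± 0.04 (adjusted p = 0.11). The differences between the lines did not pass the interaction test. The other ATP synthase genes that were lower in shControl were Atp5d (-0.22), Atp5h (-0.13), Atp5j2 (-0.17) and Atp5l (-0.21), of which Atp5d was lower in shPpargc1b cells as well (-0.15). The Atp5h call (adjusted p = 0.044) was also lost with DESeq2 and with only the groups compared. Atp5md was higher in shPpargc1b cells (0.17 ± 0.06, adjusted p = 0.046) but gave -0.037 with library totals alone, and the call was lost when any of 4 single libraries was left out (adjusted p of 0.053 to 0.17). At the upper end Atp5pb measured 81.7, 80.3 and 83.4 CPM with IFN-β in shControl, with 0.05 ± 0.06 (adjusted p = 0.54).

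In complex III Uqcr11 changed most with IFN-β. It measured 17.8, 17 and 19.1 CPM without and 13.3, 14.8 and 14.8 CPM with IFN-β in shControl libraries, with -0.33 ± 0.08 (adjusted p = 0.0034), and 13.1, 15.3 and 15.5 CPM without and 11.5, 13 and 13.2 CPM with IFN-β in shPpargc1b libraries, with -0.22 ± 0.08 (adjusted p = 0.04). Uqcr10, Cyc1 and Uqcrc1 were also lower in shControl (-0.20, -0.21 and -0.16), and Uqcr10 was lower in shPpargc1b cells (-0.17 ± 0.06, adjusted p = 0.031). In shPpargc1b cells the Uqcr11 call was lost when any of 6 single libraries was left out (adjusted p of 0.050 to 0.17), and the Uqcr10 call when any of 3 was (0.096 to 0.15). Uqcrc2 measured 64.7, 61.9 and 63.6 CPM without and 64.5, 65 and 64 CPM with IFN-β in shControl libraries, nearly the same values, with 0.03 ± 0.04 (adjusted p = 0.64). In complex IV Cox7a2l was the only member lower in shControl, at 70.3, 56.2 and 63.9 CPM with IFN-β (-0.29 ± 0.08, adjusted p = 0.01). In shPpargc1b cells it gave -0.21 ± 0.09 (adjusted p = 0.058). With the block for runs of library codes Cox7b was lower in shControl too (adjusted p = 0.042), and Cox7a2l was lower in shPpargc1b cells (adjusted p = 0.0006). Cox7a2 measured 46.7, 48.8 and 47.7 CPM with IFN-β in shControl and did not pass (0.11 ± 0.06, adjusted p = 0.18). In shPpargc1b cells it measured 40.3, 42.8 and 40.1 CPM with IFN-β and was higher (0.19 ± 0.06, adjusted p = 0.025). With library totals alone these log2 fold changes were -0.13 and -0.013. The shPpargc1b call was lost without unstimulated shPpargc1b replicate 1 or IFN-β-treated shPpargc1b replicate 2 (adjusted p of 0.11 and 0.075). Of the RPKM summed over Cox7a1, Cox7a2 and Cox7a2l, Cox7a2 supplied 45.9% ± 1.35 without and 53.0% ± 3.49 with IFN-β in shControl, and 46.8% ± 3.12 without and 53.9% ± 3.80 with IFN-β in shPpargc1b cells (SD, n = 3; exact two-sided permutation p = 0.1 in each line). Cox7a1 itself gave -0.47 ± 0.23 (adjusted p = 0.11) in shControl, the most negative value of complex IV. Cox8a, Cox4i1, Cox6b1 and Cox6a1 gave -0.10, 0.02, -0.10 and -0.003, none past the threshold.

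The signs of the small IFN-β effects rest on how libraries were scaled. TMM factors were 0.914 to 0.941 in IFN-β-treated and 1.07 to 1.09 in unstimulated libraries. With library totals alone the median over all tested genes moved to -0.27 in shControl and -0.22 in shPpargc1b cells, and 37 and 32 members were then lower. The rise of Cycs passed under that scaling too, and the knockdown counts, 34 and 30 with TMM, lay between 28 and 34 over all alternatives tried.

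The subunits of complex IV outside the name rule did not share 1 direction. Ndufa4, a subunit of complex IV, measured 9.4, 8.34 and 8.65 CPM in unstimulated shControl and 7.61, 8.08 and 8.74 CPM in unstimulated shPpargc1b libraries, which overlapped (-0.11 ± 0.09, adjusted p = 0.42). With IFN-β it measured 6.91, 6.63 and 6.12 CPM in shControl and 7.3, 8.43 and 8.19 CPM in shPpargc1b libraries, and was higher in the knockdown (0.29 ± 0.09, adjusted p = 0.03). Its paralog AA467197, which is known to be induced in inflammation, measured 191, 151 and 163 CPM in unstimulated shControl and 217, 216 and 208 CPM in unstimulated shPpargc1b libraries, also higher in the knockdown (0.34 ± 0.08, adjusted p = 0.0056). With IFN-β AA467197 measured 596, 658 and 619.9 CPM in shControl and 557, 679 and 577 CPM in shPpargc1b libraries. Those values overlapped, and AA467197 did not pass for the knockdown there (-0.05 ± 0.08, adjusted p = 0.72). It rose by 1.89 ± 0.08 and 1.50 ± 0.08 on the log2 scale, more than any of the 40 members, while Ndufa4 fell with IFN-β in shControl (-0.43 ± 0.09, adjusted p = 0.00092). The other relative, Ndufa4l2, measured 1.56, 1.49 and 1.52 CPM in unstimulated shControl and 0.898, 0.746 and 0.98 CPM in unstimulated shPpargc1b libraries (-0.80 ± 0.20, adjusted p = 0.0076). It was lower in the knockdown with IFN-β too (-1.27 ± 0.22, adjusted p = 0.00052). Of the subunits encoded in mitochondrial DNA only mt-Cytb of complex III and mt-Co1 of complex IV had enough counts to be tested, since mt-Co2, mt-Co3, mt-Atp6 and mt-Atp8 had 0 to 5 counts in a library. Neither mt-Cytb (-0.17 ± 0.07, adjusted p = 0.1) nor mt-Co1 (-0.10 ± 0.05, adjusted p = 0.12) passed the threshold in unstimulated cells, and mt-Cytb was higher in the knockdown with IFN-β (0.26 ± 0.07, adjusted p = 0.017).

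The assembly factors of the same complexes were lower with the knockdown in 0 to 4 genes per list. For complex III 0 of 6 tested assembly factors were lower and 0 higher in unstimulated cells, and 1 (Uqcc3, -0.35) was lower with IFN-β. The most negative unstimulated value was that of Lyrm7, at -0.61 ± 0.27 (adjusted p = 0.12), which gave 0.17 with IFN-β. For complex IV 3 of 23 (13.0%) were lower, near the 11.1% of all tested genes, and 1 was higher in unstimulated cells. The lower ones were Cox20 (-0.28), which matures subunit 2, Surf1 (-0.22), which acts in early assembly, and Lrpprc (-0.18), which stabilises mitochondrial mRNAs, and the higher one was the heme A synthase Cox15 (0.17). With IFN-β 4 of 23 (17.4%, against 12.7% of all tested genes) were lower and 1 was higher, namely Cmc2, at 1.0 ± 0.14 (adjusted p = 7.2e-05). Of the 5 tested assembly factors and inhibitor of ATP synthase 0 were lower and 2 were higher in unstimulated cells, Atpaf1 (0.37) and Tmem70 (0.23). With IFN-β Tmem70 was higher (0.29). The lowest value of this list was -0.60 in unstimulated and -0.61 in IFN-β-treated cells, neither past the threshold. The inhibitory factor Atpif1 gave -0.07 ± 0.07 (adjusted p = 0.58). The medians of these lists in unstimulated cells were -0.13, -0.06 and -0.07, against -0.34 for the 40 members. The lists differ in level and size and were not tested against each other. Complex II, which feeds electrons to ubiquinone from succinate, was lower in 4 of 4 subunits in both states, with medians of -0.46 and -0.38. Complex I was lower in 20 of 37 tested subunits in unstimulated and 13 of 37 in IFN-β-treated cells, with medians of -0.21 and -0.19.

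**Figure D5:**
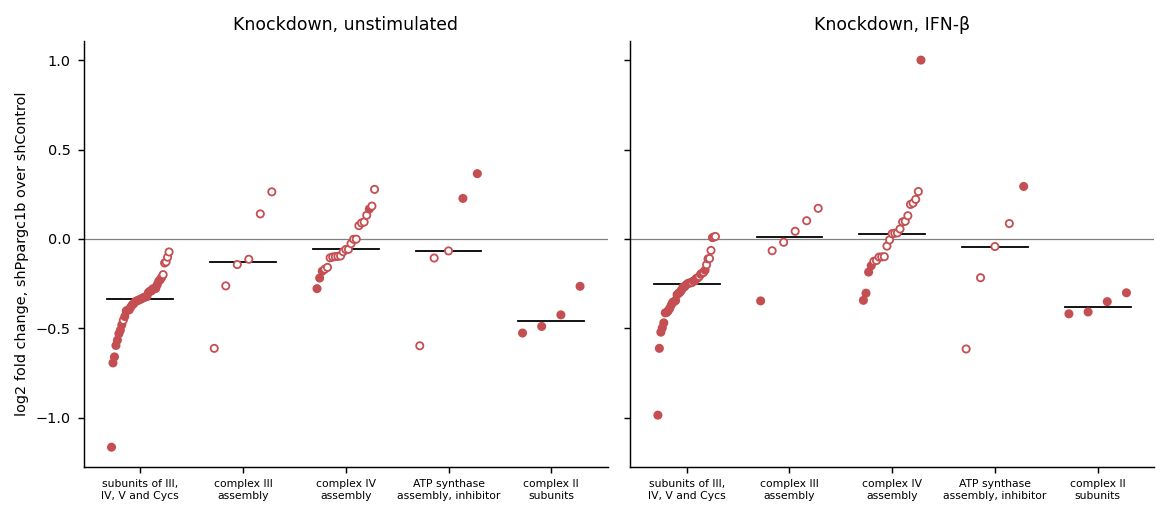
Log2 fold change of shPpargc1b over shControl for the 40 members (subunits of complexes III, IV and ATP synthase, which is also called complex V, and Cycs), for assembly factors of each complex and for complex II subunits, in unstimulated (left) and IFN-β-treated (right) cells, with 1 point per gene, filled where adjusted p was under 0.05, and a line at the median. On the left all members and complex II subunits lie below 0, with medians of -0.34 and -0.46, and the assembly factors lie on both sides of 0 in both panels.

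With IFN-β the assembly factors of complex IV moved in both directions in shControl cells, with 5 of 23 higher and 5 lower (21.7% each), which is near the 23.7% and 24.6% of all tested genes. Sco1, a copper chaperone for complex IV, was among the higher ones (1.26), and Lrpprc was among the lower ones (-0.90). For complex III 4 of 6 factors were lower, among them Bcs1l, which inserts the Rieske protein (-0.97 in shControl and -0.92 in shPpargc1b cells).

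Other features of the libraries moved with the knockdown. The summed CPM of 12 macrophage markers was 13133 to 13749 in unstimulated shControl and 8619 to 9075 in unstimulated shPpargc1b libraries, and 13049 to 13933 and 8506 to 9472 with IFN-β. Lyz2 led this sum in every group, and 4 of 12 markers were lower and 1 higher in unstimulated cells (6 and 1 with IFN-β). Dendritic markers such as Itgax and Zbtb46 were detected in all groups. The summed CPM of the 11 tested ones was 2085 to 2395 in unstimulated shControl and 2563 to 2788 in unstimulated shPpargc1b libraries, with 6 of 11 higher (7 with IFN-β). Neutrophil markers summed to 42.9 to 97.7 and 92.0 to 162 CPM, and proliferation markers to 367 to 478 and 286 to 409 CPM, in the same groups. Mast cell or basophil markers summed to 9.29 to 18.1 CPM in unstimulated shControl and 23.0 to 27.8 CPM in unstimulated shPpargc1b libraries, with 3 of 8 tested markers higher, among them Gata2 (1.64) and Kit (0.93). Lymphocyte markers summed to 0.786 to 1.21 and 1.39 to 1.69 CPM in these groups, with 1 of 5 tested markers higher, and neither list overlapped between them. Eosinophil markers summed to 37.9 to 70.4 and 27.8 to 50.8 CPM, which overlapped. The part of these markers in the fall of the members was not tested.

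Reads that fit more than 1 gene were a limit for part of the members. Of the 100-base stretches of a member's annotated transcripts more than 5% also occur in transcripts of other genes for 15 members, among them Atp5g2, Cox7c (30.0%), Cycs, Atp5h (27.0%) and Atp5o (23.1%). Of those 15 members 11 were lower with the knockdown in unstimulated and 8 in IFN-β-treated cells, and of the other 25 members 23 and 22 were lower. Cox4i1, Uqcrc2, Atp5j and Atp5pb share transcribed sequence with the neighbouring genes Emc8, Pdzd9, Gabpa and Wdr77, and whether strand was used in counting is not given in the sources used here.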

How the data were processed

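RNA-seq of 12 libraries (4 groups of 3) was deposited as raw gene counts. Per the study's methods, the authors trimmed adapters, aligned ribosomal RNA-depleted paired-end reads to mm10 and counted reads per gene in a GENCODE annotation. The submitters' processing notes name Trim Galore 0.6.0 and STAR 2.7.8a. Here, counts were tested with edgeR 4.0.16 in R 4.3.3 (quasi-likelihood F-test, TMM, all 12 libraries, filterByExpr with a minimum count of 10 and total of 15), which kept 18228 of 55471 genes. Adjusted p-values (Benjamini-Hochberg) are over all tested genes. The script was tested on simulated counts. DESeq2 1.42.0, limma-voom (limma 3.58.1), other scalings, filters and sample sets, a block for runs of library codes, and leaving out each library were the alternatives. RPKM is CPM per kilobase of merged GENCODE M21 exons, which also gave gene positions (GRCm38), and promoter sequences came from RefSeq (GRCm38.p6). Library totals of 49.9 to 77.7 M counts set the counting precision. Replicates were compared for duplicates (chi-square per gene of 8.54 to 21.3, so none agreed within sampling noise). Replicates were numbered in record order, which is also the order of the runs of library codes, and were paired only in the block alternative. Every member may be named, and values per library are given for the ends of each complex, for isoforms, for Cyc1 and Cycs, and for the highest and lowest levels, by rule, and for Atp5o, Atp5mpl and other members that the text describes. The members and gene lists were chosen with earlier results of these data known.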

Additional observations from a re-analysis of the deposited data

How the results depend on the processing

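The knockdown counts were stable over 20 alternatives, from 30 to 34 members lower without IFN-β and from 28 to 33 with it, and 0 members passed the interaction test under each of them for which it was computed. The IFN-β counts were less stable. With library totals alone 37 members were lower in shControl and 32 in shPpargc1b cells, and 1 was higher in shPpargc1b cells. With only the groups compared 2 members were lower in shPpargc1b cells. Leaving out 1 library at a time gave 6 to 15 members lower in shControl (6 without IFN-β-treated shControl replicate 2), and in shPpargc1b cells 2 to 4 lower (2 without unstimulated shPpargc1b replicate 3) and 1 to 4 higher (1 without unstimulated shPpargc1b replicate 1 or IFN-β-treated shPpargc1b replicate 2). Of single members, 17 IFN-β values that passed the threshold with or without the change of setting turned sign, all with library totals alone, an alternative that omits the TMM factors. A further 64 IFN-β values that passed in neither fit changed sign, 5 of them with library totals alone and 59 under other alternatives. The shControl values among the 17 that passed in at least 1 fit were, with library totals alone, Atp5j at -0.24, Atp5md at -0.22, Atp5pb at -0.19, Uqcrc2 at -0.21 and Cox4i1 at -0.22. The shPpargc1b values among these 17 were Atp5c1 at -0.16, Atp5j at -0.16, Atp5md at -0.037, Atp5mpl at -0.19, Uqcrb at -0.14, Uqcrc2 at -0.13, Uqcrfs1 at -0.17, Cox4i1 at -0.19, Cox5b at -0.16, Cox6b1 at -0.19, Cox7a2 at -0.013 and Cox7c at -0.18. Leaving out 1 library removed the knockdown call of 5 members in each state, and the cause was not tested. The labels give no replicate numbers, and whether a run of consecutive library codes is a shared batch is not stated. Deviations from the group means correlated by 0.028 to 0.146 in the 18 pairs of libraries of the same run, all above 0, and by -0.154 to 0.056 in the 36 pairs of different runs, 31 of them below 0, where centring on groups of 3 itself lowers the values. This is a hint from the data that the runs structure the libraries. A replicate block for these runs, 1 library of each group in each, gave 34 and 33 members lower with the knockdown and 14 and 5 lower with IFN-β. Its 7 changed calls were all gained, namely Uqcr11, Uqcrb and Cox7a2l for the knockdown with IFN-β, Atp5a1 and Cox7b for IFN-β in shControl, and Atp5pb and Cox7a2l for IFN-β in shPpargc1b cells.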
